A study of Salmo salar with 12 samples.

Results

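Of the 55468 salmonid probes on the array, 92 (0.166%) carried a signal well above the background on all 9 arrays of uranium-exposed liver and on none of the 3 control arrays. These transcripts were chosen by that contrast, on the scanner software's call for each spot, so everything that sets exposed against control liver below is a description with no test. Liver RNA came from Atlantic salmon parr kept for 48 h in lake water with no added uranium (control) or with uranyl acetate dihydrate made from depleted uranium at 0.25 mg/L (low U), 0.5 mg/L (medium U) or 1.0 mg/L (high U), with 3 arrays per group and 1 RNA sample per array, read in 1 colour (Cy3). All groups were unfed, kept in the dark in aerated static water and acclimated to it beforehand. No replicate tanks are described, and the reported fish number, weight and loading match a single tank per group. Dose, and exposure itself, then cannot be told apart from tank. The standard errors, intervals and p-values between doses below treat samples of a group as replicates and measure only the spread between them. Brightness differed between the groups. The 75th percentile of intensity over probes lay between 55.2 and 73.5 in the control and was 112 to 135 with low U, 121 to 152 with medium U and 68.2 to 93.7 with high U, and the number of members was smaller once the exposed arrays were dimmed, as given below.

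The liver clears foreign and endogenous lipophilic compounds by coupling them to sugar acids, sulfate or other groups, and it carries much of the body's protein, lipid and nucleotide metabolism. Uranium in water is taken up by fish and reaches the liver, where the uranyl ion binds phosphate and carboxyl groups of proteins and nucleotides. Transcripts near the lower limit of an array can pass its detection limit with a small change in signal, and in a bulk sample fewer cells of a type and less RNA per cell cannot be told apart.

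The members were dim transcripts with a range of roles, led by nmd3, an adaptor for the nuclear export of the large ribosomal subunit, and Np, purine nucleoside phosphorylase. Over the 92 members the median intensity on the exposed arrays had a median of 33.2 (range 18 to 142), against a median of 177 over the 21867 probes well above background on all 9 exposed arrays. On the control arrays the highest value of a member lay between 5.52 and 14.8. With log2 intensity expressed relative to the 75th percentile of the same array (called the scaled level here), the exposed mean exceeded the control mean by a median of 1.42 over the members (log2, range 0.39 to 4.20). The same median was 2.20 with no scaling, 2.04 with scaling to spiked-in RNA and 0.03 with another background correction (normexp) whose added offset of 50 exceeds the intensity of most members. Control spots not well above background give only a limit, so the fold is also stated as a lower bound, in which each control value was replaced by the lowest signal well above background on that array if it lay under it, both relative to the 75th percentile. That lower bound was at least 1.5-fold for 63 members, at least 2-fold for 23 and at least 4-fold for nmd3 and Np alone, and for 1 member it was under 1, so no fold is given there. The bound holds only under this scaling and background subtraction and carries no sampling error. Other processing gave differences below it, for example 0.44 (log2) for ABHD10 and 0.32 for SDHA, with bounds of 1.89 and 1.45.

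The control signal of the members was weak but measurable. All 92 were significantly above their local background on at least 1 control array by the scanner software's other call, which tests the spot against its surroundings but sets no margin, and 71 were so on all 3 control arrays. That is 77.2% of the members, against 18.2% of the 24974 probes that were well above background on no control array. Of those 24974 probes, 16722 were well above background on no array, whereas members had to pass on every exposed array. Nothing is read from that difference. Since all 92 had some control signal, the members are described as transcripts well above background only in exposed liver, and not as absent from control liver. On the scaled levels, every exposed array lay above every control array for 70 of the 92 members (76.1%), and the groups overlapped for 22. The same separation was found for 4.52% of all probes and for 10.3% of the probes well above background on all 9 exposed arrays. The rule used this contrast, so nothing is read from the difference.

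**Figure D1:**
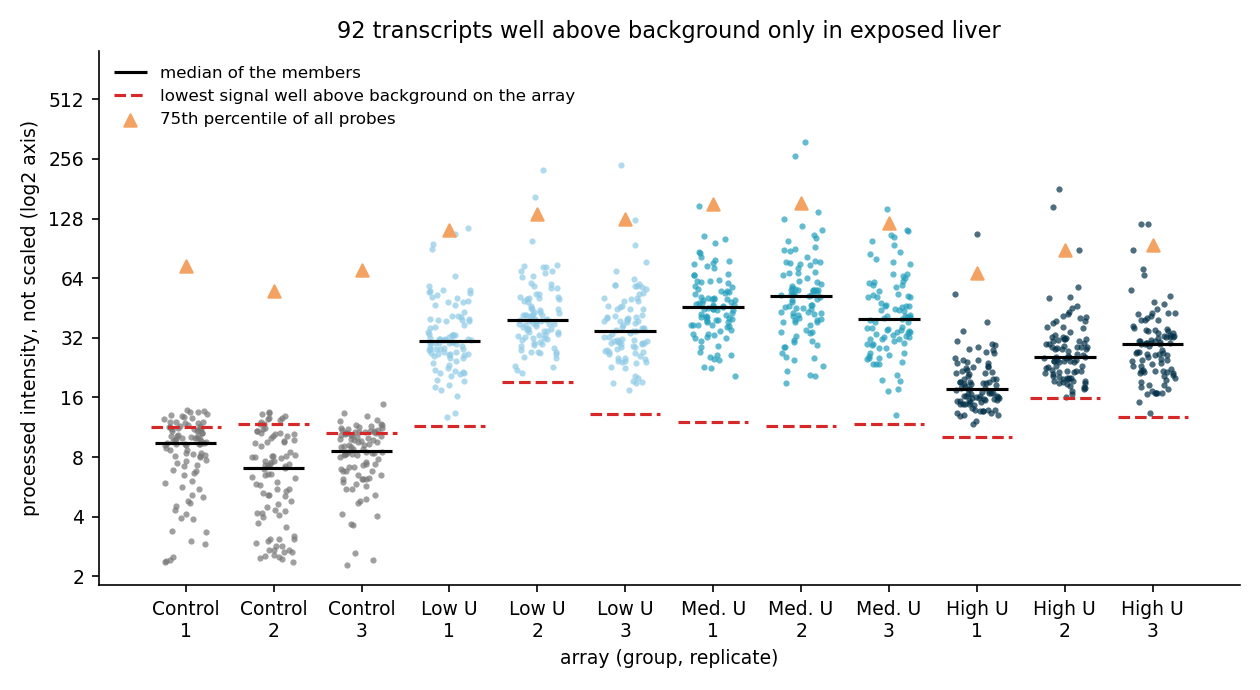
Processed intensity (log2 axis, not scaled between arrays) of the 92 members on each of the 12 arrays, with the median of the members, the lowest signal that was well above background on the array and the 75th percentile of all probes. The median of the members was 7.01 to 9.37 on the control arrays and 17.7 to 51.7 on the exposed arrays, with the lowest exposed median on high U replicate 1, which was also the dimmest exposed array.

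A gene name could be tied to 28 of the 92 members. The array files hold no gene names, and names exist only for probes that the study itself called changed, so the named members are not a sample of all 92. Their lower bounds reached at least 1.5-fold in 27 of 28 cases, against 63 of all 92 members. The study's list was itself cut at a fold change of 1.5 with the same control samples. Nothing is therefore read from that count, or from such counts for the groups of named members below. On the scaled level, exposed and control arrays did not overlap for any of the 28. This held for 76.1% of all members and 10.3% of the probes well above background on all 9 exposed arrays. The rule and the naming used this contrast, so nothing is read from such a separation where it is given for single members. Of the named members, 12 were among the brightest, the largest in lower bound or the most different between low and high U, and the others are described because they carry a name. Intensities are given in scanner units without scaling, whereas every fold is on the scaled level.

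Among the named members, 3 act on RNA or in translation. The brightest of them, nmd3, had intensities of 4.12, 2.72 and 7.99 on control replicates 1 to 3. In exposed liver it reached 115, 164 and 125 with low U, 148, 313 and 142 with medium U and 53.1, 146 and 119.9 with high U. The lowest exposed array lay well above the highest control array, and on the scaled level the lower bound of nmd3 was 6.99-fold. The exposed mean minus the control mean was 4.13 (log2). It was 1.17 to 4.91 with other scaling, background correction or sets of arrays. Cstf3, a subunit of a factor that stimulates the cleavage of messenger RNA before polyadenylation, was dim in all groups. It measured 3.89 to 5.78 on the control arrays and 14.7 to 40.8 on the exposed arrays. Its lower bound was 1.39-fold, the only named one under 1.5. DPH2, which takes part in making diphthamide, a modified residue of elongation factor eEF2, measured 5.42 to 11.5 on the control arrays and 17.7 to 55.5 on the exposed arrays, with a lower bound of 1.70-fold, although under normexp its exposed mean was lower than its control mean, by -0.07 (log2).

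Nucleoside and sugar metabolism held 4 named members. Np splits inosine and guanosine in purine salvage, and its intensities were 2.91, 6.32 and 3.62 on the control arrays. On the exposed arrays they were 107, 224 and 239 with low U, 55.3, 264 and 98.4 with medium U and 107, 89.2 and 120.2 with high U. Medium U replicate 1 was the lowest exposed array and still far above every control array. On the scaled level the lower bound of Np was 6.67-fold over the 9 exposed arrays and 4.70-fold at medium U. The exposed mean of Np minus its control mean was 4.20 (log2), and 1.18 to 4.98 under the same alternatives as for nmd3. The spread of Np among exposed arrays (SD 0.75, log2 scaled level, n = 9) was larger than that of nmd3 (SD 0.42). A nucleoside-diphosphate-sugar pyrophosphorylase, an enzyme that makes activated sugars, gave 11.4, 12.5 and 7.42 in the control and 65.3, 50.9 and 56.2 with low U, 86.5, 112 and 94 with medium U and 23.8, 41.4 and 42.5 with high U. Its lower bound was 2.94-fold. SLC35C1, the Golgi carrier of GDP-fucose, ranged over 7.22 to 11.8 on the control arrays and 18.6 to 64.2 on the exposed arrays, with a lower bound of 1.85-fold. The sulfotransferase chst10, which adds sulfate to sugar chains of glycoproteins, ranged over 3.94 to 10.1 on the control arrays and 22.7 to 85.8 on the exposed arrays, with a lower bound of 2.38-fold.

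Conjugation and carbonyl reduction held 3 named members, and all had a lower bound of at least 1.5-fold. Both UDP-glucuronosyltransferase members, enzymes that couple glucuronic acid to lipophilic compounds, carry the same description in the study's annotation (UDP glucuronosyltransferase 2 polypeptide A3). The brighter, with the symbol UGT2A1, measured 8.14, 3.07 and 3.68 in the control and 89.9, 68.3 and 77.5 with low U, 62.5, 118 and 104 with medium U and 23, 31.6 and 89.1 with high U. It lay lowest on high U replicates 1 and 2, which were still well above the highest control value, and its lower bound was 3.43-fold. The dimmer, with the symbol Ugt1, measured 10.8, 7.26 and 6.48 in the control and 29.97, 30.01 and 31.1 with low U, 40.4, 53.4 and 46.6 with medium U and 16, 20.2 and 26.7 with high U, with a lower bound of 1.59-fold. Cbr1, carbonyl reductase 1, which reduces carbonyl compounds with NADPH, gave 9.96, 2.50 and 4.93 in the control and 51.6, 46.1 and 93.6 with low U, 82.3, 138 and 84.3 with medium U and 26.7, 50.6 and 39.5 with high U. The lower bound of Cbr1 was 3.16-fold.

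Other probes with the same descriptions passed the limit in control liver as well. A further probe with the UDP-glucuronosyltransferase 2 polypeptide A3 description was well above background on all 3 control arrays and all 9 exposed arrays, at 40.7 to 124 in the control and 322 to 924 in exposed liver. A second was well above background on 2 of the 3 control arrays, at 8.49 to 28.8 in the control and 76.3 to 272 in exposed liver. On the scaled level the exposed mean of these probes exceeded the control by 2.27 and 2.53 (log2), beside 3.09 and 1.16 for the members UGT2A1 and Ugt1. Glucuronosyltransferases form a family of similar genes, so the probes may share targets, and all of them have names because the study called them. Another probe described as NLR CARD domain containing 3 (63.2 to 86.6 in the control and 172 to 458 in exposed liver) and another described as small ubiquitin-related modifier 3 precursor (61.5 to 99.5 in the control and 130.4 to 391 in exposed liver) were likewise well above background on all 12 arrays. For these 3 descriptions, passing the limit in exposed liver alone was a property of the member probes and not of every probe with the description.

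Mitochondrial proteins held 2 named members. SDHA, the flavoprotein of succinate dehydrogenase, which links the citric acid cycle to the respiratory chain, measured 5.91, 7.54 and 9.72 in the control and 48.7, 51.1 and 58.4 with low U, 66.7, 89.2 and 76.9 with medium U and 21.3, 42.3 and 51.8 with high U. ABHD10, a hydrolase of the mitochondrial matrix, measured 8.65, 5.29 and 14.8 in the control and 95.1, 98.7 and 69.6 with low U, 105, 127 and 106 with medium U and 38.6, 51.4 and 70.9 with high U. The lower bounds of SDHA and ABHD10 were 2.74-fold and 3.70-fold. SDHA was the 1 member among the 40 named probes whose descriptions fit the list of mitochondrial words.

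Lipid metabolism held 3 named members at lower levels. ABHD5, which activates the main triglyceride lipase at lipid droplets, ranged over 5.50 to 8.92 on the control arrays and 18.5 to 48 on the exposed arrays. The cholesterol-binding protein stard3 of late endosomes ranged over 10.2 to 11.6 on the control arrays and 28.6 to 71.9 on the exposed arrays. A phosphatidylinositol-5-phosphate 4-kinase of type alpha (the word kinase is missing from its entry), which makes a phosphoinositide, ranged over 8.02 to 11.4 on the control arrays and 20.6 to 48.1 on the exposed arrays. Their lower bounds were 1.74, 2.54 and 1.64-fold. The cytoskeleton and membrane traffic held ARPC3, a subunit of the actin-nucleating ARP2/3 complex (1.71-fold), ANKRD28, a regulatory subunit of a protein phosphatase (1.74-fold), and a protein with ankyrin repeat and PH domain 1 (1.83-fold), all as lower bounds. ARPC3 was among the least variable members, with 7.18 to 9.74 on the control arrays and 19.2 to 41.6 on the exposed arrays.

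Immune regulation held 2 named members. The transcript described as NLR CARD domain containing 3, in mammals a brake on innate immune signalling, measured 4.79, 10.6 and 10.7 in the control and 54.7, 69.8 and 63.3 with low U, 75, 88 and 59 with medium U and 22.6, 43.1 and 34.6 with high U. Its lower bound was 2.73-fold. An IMAP family member 4-like transcript, a GTPase family known from mammalian lymphocytes, measured 13.1, 10.8 and 10.3 in the control and 46.6, 72.6 and 38.9 with low U, 51.5, 56.9 and 44.6 with medium U and 21.8, 25.5 and 23.6 with high U. It was the member whose low and high U means differed most in the direction of low U, and its lower bound was 1.94-fold.

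The remaining 8 named members had varied or less known roles, and all had a lower bound of at least 1.5-fold. CBWD1, a CobW domain protein of a family that hands zinc to other proteins, measured 5.66, 9.58 and 12.8 in the control and 46.9, 58.7 and 58.5 with low U, 66.4, 90.1 and 87 with medium U and 29.3, 31.6 and 44.5 with high U. A Tcb1 transposase, from a Tc1-like element of a kind found in many copies in salmonid genomes, measured 10.01, 8.50 and 11.2 in the control and 39.3, 72.5 and 53.3 with low U, 58.2, 71.8 and 62 with medium U and 34.5, 40.6 and 55.9 with high U. With so many related copies, its probe may report several loci at once. The precursor of small ubiquitin-related modifier 3, a protein tag joined to other proteins, measured 8.10, 9.40 and 7.54 in the control and 39.1, 41.8 and 37.2 with low U, 78.6, 77.1 and 60.7 with medium U and 27.8, 29.7 and 35.9 with high U. The lower bounds of these 3 were 2.59, 2.68 and 2.31-fold in that order. GRINA, a membrane protein of the TMBIM family (2.62-fold), C16ORF35, the older symbol of NPRL3 (2.35-fold), TMCO6 (1.99-fold), KIAA0415, the older symbol of AP5Z1 (1.60-fold), and C18orf8, the older symbol of RMC1 (1.53-fold), had the lower bounds given beside them.

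**Figure D2:**
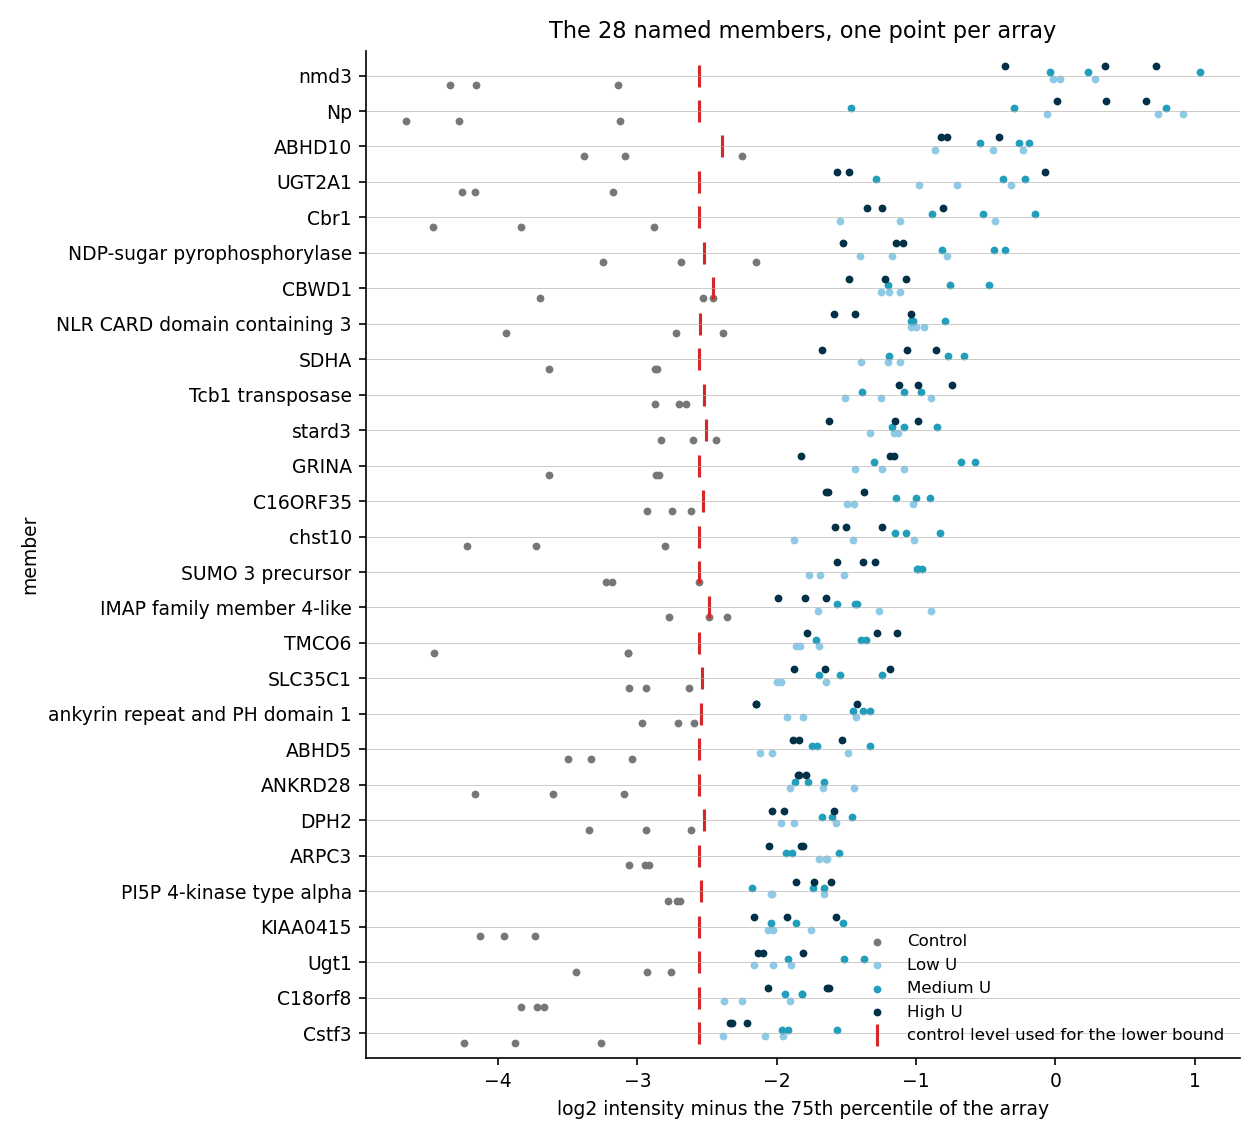
Scaled level (log2 intensity minus the 75th percentile of the array, x axis) of the 28 named members, with 1 point per array coloured by group and a mark for the control level that the lower bound uses. All points of exposed arrays lie to the right of all control points for each of the 28, and nmd3 and Np lie furthest from the control, at lower bounds of 6.99-fold and 6.67-fold. Such separation held for 76.1% of all members and 4.52% of all probes. The rule and the naming both used this contrast, so nothing is read from it.

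Of all 824 named probes, 28 (3.40%) were members. By lists of gene words chosen for this tissue, most lists held 1 or none of them. The antioxidant and xenobiotic list held 3 of them (UGT2A1, Ugt1 and chst10) among its 18 named probes. It took in chst10 through the word sulfotransferase, although chst10 is described above under nucleoside and sugar metabolism. The ribosome and translation list held nmd3 among 35, the ubiquitin and folding list the SUMO precursor among 22, the transporter list SLC35C1 among 21, the cytoskeleton list ARPC3 among 20 and the transposable element list the Tcb1 transposase among 4. None of the 39 named probes of transcription and chromatin, the 10 of immunity or the 9 of apoptosis and DNA repair was a member. The words of the immunity list match neither the NLR CARD domain containing 3 nor the IMAP family member 4-like description, so both immune members above lie outside it. With so few probes per list, nothing is read from these counts. Of the marker lists for hepatocytes and other cell types that liver samples could hold, 1 red blood cell and 1 pancreatic probe carried a name, and neither was a member, so the tissue label could not be checked by names here.

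The 64 members without a name had lower bounds from under 1 to 3.18-fold (median 1.55-fold). The brightest was CUST_4929_PI426552878, at 7.49, 2.94 and 9.57 in the control and 48.6, 73.3 and 59.3 with low U, 73.8, 106 and 66.9 with medium U and 18.9, 180.0 and 31.8 with high U. Its exposed arrays lay above its control arrays throughout, as on the scaled level for 76.1% of members and 4.52% of all probes. Over all 92 members, 63 probes were designed on contigs of the cGRASP consortium (68.5%, against 64.8% of all probes), 25 on rainbow trout UniGene clusters (27.2% against 29.8%) and 4 on Atlantic salmon UniGene clusters (4.35% against 5.40%). None was an antisense probe (0.557% of all probes). The members lay across the array, with 46.7% in the upper rows and 55.4% in the left columns, against 52.6% and 50.1% of all probes. Each was measured by 1 spot per array, except 2 members with 2 spots, and the scanner software marked none of their spots as an outlier.

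The difference between doses was not fixed by the rule and was tested with limma on the 9 exposed arrays, over 29253 probes. The rule does touch it in one way. Members had to pass on every exposed array. Single high U arrays kept out 47, 62 and 18 probes (replicates 1 to 3), against 8, 16 and 2 for low U and 0, 1 and 2 for medium U. Whether the probes kept out in this way had lower levels at high U was not tested. At low and high U, replicate 2 kept out the most and had the highest limit of its group (lowest signal well above background 19.1 and 15.9). No member was called among the doses by the moderated F-test (adjusted p below 0.05, fold change 1.5 or more), and none of the 29253 probes was (0%). Without adjustment, 3 members (3.26%) passed, against 5.41% of all probes tested. This fit did not use the slides, each of which carried 1 array of every group. With slide as a block, 9 of the 92 members and 2772 of the 29253 probes passed without adjustment. The median difference over members was 0.13 (log2 scaled level) for medium minus low U, -0.10 for high minus medium U and 0.06 for high minus low U, beside -0.02, -0.03 and -0.04 over all probes tested. Over the 21866 tested probes well above background on all 9 exposed arrays, the medians were -0.04, 0.004 and -0.03. Under normexp the 3 medians over members were -0.03, 0.19 and 0.16 (all probes tested -0.04, 0.06 and 0.03). The first and the second thus changed sign, and no order of the doses is read from them.

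Medium U gave the highest mean of the 3 doses for 44 members (47.8%, against 32.8% of the probes tested), high U for 32 (34.8% against 32.1%) and low U for 16 (17.4% against 35.1%). This order turned under normexp, with high U highest for 75 members (81.5%, against 46.3% of probes), medium U for 12 (13% against 27.5%) and low U for 5 (5.43% against 26.2%). Between low and high U, 51 members (55.4%) were higher at high U, against 44.1% of the probes tested. Under normexp 85 members were, with a median difference of 0.16 (log2), against 0.03 over all probes tested. None of the pairwise differences of a member passed the adjusted threshold, which no other probe passed in these fits either (0% each). At an unadjusted p below 0.05, 4 members were higher at medium than at low U (4.35%, against 1.21% of probes) and 0 lower (against 1.21%), 1 was higher and 7 lower at high than at medium U (1.09% and 7.61%, against 3.25% and 4.65%), and 0 were higher and 1 lower at high than at low U (0% and 1.09%, against 1.74% and 4.07%). Under normexp these counts ran the other way, with 18 members higher and 0 lower at high than at medium U (19.6% and 0%, against 10.2% and 6.62% of probes), and 10 higher and 0 lower at high than at low U (10.9% and 0%, against 3.29% and 4.47%). Since the normexp offset of 50 exceeds the intensity of most members, no order of the doses is read from its counts either. With no filter on dim probes, 1 member (1.09%) passed the adjusted threshold for high minus medium U, against 9.6% of 55467 probes. The median SE of a member's difference was 0.25 (log2), and 0.20 with slide as a block. Without that block, the 95% confidence interval of a member's difference had a median half-width of 0.57 (log2). For high minus low U, that interval excluded a change of 1 in either direction for 71 of 92 members. This count was not made over all probes tested, so nothing particular to the members is read from it.

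The IMAP family member 4-like transcript had the most negative high minus low U difference of the members, at -0.52 (log2; SE 0.22, 95% confidence interval -1.02 to -0.02, adjusted p = 0.833). It was -0.33 without low U replicate 2, -0.73 without low U replicate 3 and -0.015 under normexp. UGT2A1 differed by -0.37 (log2; SE 0.44, 95% confidence interval -1.39 to 0.64, adjusted p = 0.911), with high U replicates 1 and 2 low and replicate 3 above all 3 low U arrays on the scaled level. Its difference was -0.86 without high U replicate 3 and -0.11, -0.15 and -0.20 without high U replicate 1, high U replicate 2 and low U replicate 1. In the other direction, C18orf8 differed by 0.40 (log2; SE 0.19, 95% confidence interval -0.03 to 0.84, adjusted p = 0.833), from intensities of 21.5, 36 and 26.6 at low U and 16.3, 28.6 and 30.1 at high U on arrays that were dimmer as a whole. Among unnamed members the largest difference was that of CUST_33569_PI426552878, at 0.92 (log2; SE 0.52, 95% confidence interval -0.27 to 2.11, adjusted p = 0.833), from 33.2, 31.5 and 19.1 at low U to 67.2, 32 and 18.6 at high U. High U replicate 1 stood apart, and without it the difference was 0.29 (log2).

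The SUMO precursor was highest at medium U, where medium minus low U was 0.68 (log2; SE 0.15, 95% confidence interval 0.34 to 1.02, adjusted p = 1.00), whereas high minus medium U was -0.44 (log2; SE 0.15, 95% confidence interval -0.78 to -0.10, adjusted p = 0.572). Its 3 medium U arrays all lay above the low U arrays, as for 4.35% of members and 3.60% of probes tested. Under normexp its high minus medium U was 0.02 and no longer negative. The nucleoside-diphosphate-sugar pyrophosphorylase had the same course, with 0.58 (log2; SE 0.22, 95% confidence interval 0.06 to 1.09, adjusted p = 1.00) and -0.71 (log2; SE 0.22, 95% confidence interval -1.22 to -0.20, adjusted p = 0.549). For nmd3 and Np the intervals were wide, and high minus low U was 0.14 (log2; SE 0.34, 95% confidence interval -0.64 to 0.92, adjusted p = 0.968) and -0.19 (log2; SE 0.52, 95% confidence interval -1.38 to 1.01, adjusted p = 0.973). A p above the threshold does not show that the doses gave equal levels.

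**Figure D3:**
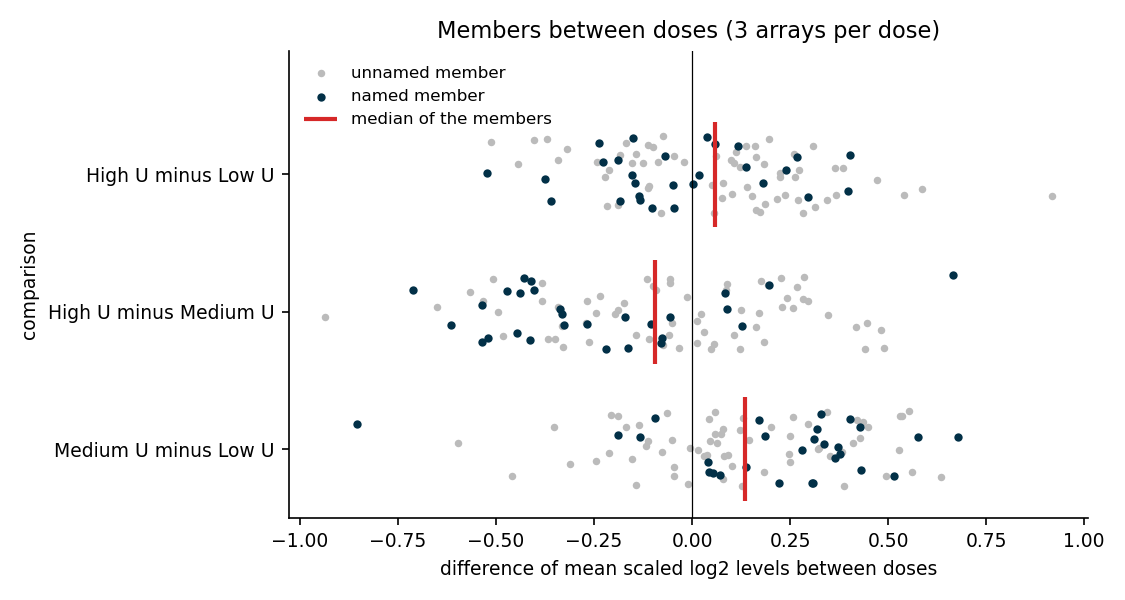
Differences in mean scaled level (log2, x axis) between the doses for each of the 92 members, with 3 arrays per dose, named members in dark and the median of the members as a bar. The medians are 0.13, -0.10 and 0.06, no point passed the adjusted threshold, and under normexp the first median was below 0 and the second above 0.

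Array brightness differed between exposed and control arrays. The 75th percentile of log2 intensity was 6.82 on average over the exposed arrays and 6.04 over the control arrays, a difference of 0.78 (exact permutation test, two-sided, 220 regroupings, p = 0.0136). Without control replicate 2, the dimmest array, it was 0.65 (exact permutation test, p = 0.0727). Within the 3 slides, each of which carried 1 array of every group, it was 0.70, 1.02 and 0.62. The permutation tests on brightness and on local background regrouped arrays across slides and did not use this pairing. Probes well above background in the 3 arrays of 1 dose and on no control array numbered 570 with low U (1.03%), 1521 with medium U (2.74%) and 129 with high U (0.233%), in the order of the brightness of the groups. The reverse, on all 3 control arrays and on no array of the dose, was met by 26 probes with low U (0.0469%), 8 with medium U (0.0144%) and 135 with high U (0.243%). Against all 9 exposed arrays the reverse was met by 4 probes (0.00721%), beside the 92 members. At high U, where brightness was closest to the control, the counts were 129 and 135 as deposited. With the exposed arrays dimmed to the control they were 87 and 228. Whether brightness set these counts was not tested.

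When each exposed array was dimmed to the mean brightness of the control (75th percentile of 65.9) and a probe had still to reach the lowest signal well above background there, 36 of the 92 members (39.1%) passed on all 9 exposed arrays. Of all 21867 probes well above background on the 9 arrays, 93.8% did. By dose, 43 members stayed on the low U arrays (46.7%, against 95.2% of probes), 75 on the medium U arrays (81.5% against 98.3%) and 64 on the high U arrays (69.6% against 97.5%). The lowest signal well above background, which a probe had to reach, was 19.1 on low U replicate 2. It was 11.5 and 13.3 on low U replicates 1 and 3. The part of low U replicate 2 in the low U count was not tested. Among the 36 were 20 of the 28 named members, including nmd3, Np, ABHD10, UGT2A1, Cbr1, SDHA and the Tcb1 transposase, whereas chst10, SLC35C1, ABHD5, ARPC3, Ugt1, C18orf8, Cstf3 and the ankyrin repeat and PH domain 1 protein fell out. After dimming, the reverse count rose from 4 to 72. Dimming was applied to the exposed arrays alone, so the count of members could only fall and the reverse count only rise. At single doses the counts in exposed and control liver were 98 and 230 with low U, 328 and 212 with medium U and 87 and 228 with high U. The part of brightness in the scaled levels was not tested.

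**Figure D4:**
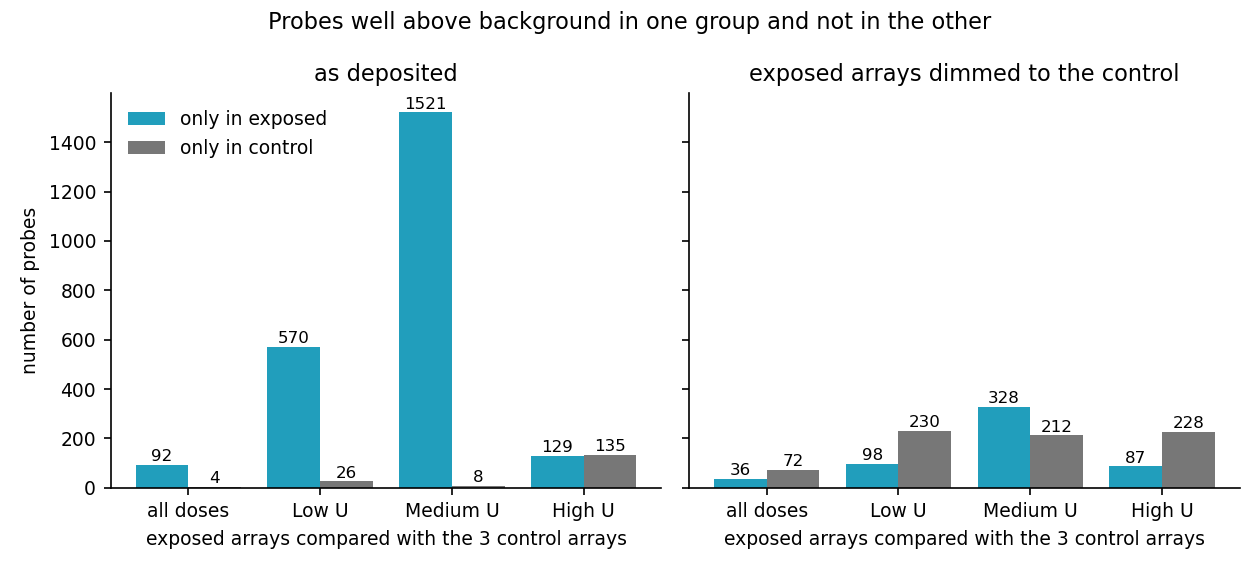
Number of probes (y axis) well above background on the exposed arrays and on no control array, and the reverse, for all 9 exposed arrays and for the 3 arrays of each dose, as deposited and with the exposed arrays dimmed to the mean brightness of the control. As deposited the counts over all doses are 92 and 4, and after dimming they are 36 and 72.

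The local background around the spots differed by less than the spread between arrays, which included differences between slides. Its array median averaged 26.8 over the exposed and 28.5 over the control arrays, a difference of -1.72 (same test, exact permutation p = 0.441). For single doses the difference was -0.83 with low U, -0.50 with medium U and -3.83 with high U (exact p = 0.8, 0.9 and 0.3, where 0.1 is the smallest that 3 arrays against 3 allow). Around the member spots alone it was 26.9 and 28.3, a difference of -1.39 (exact permutation test, p = 0.577). The members' spots stood above their surroundings by a median of 14 to 16 on the control arrays and 21 to 59.2 on the exposed arrays. Within the 3 slides, the background over all spots differed by -3, -0.67 and -1.5, lower in exposed liver on each slide. Control replicate 1 had the highest background of all arrays (33.0), on the slide where the exposed arrays also averaged highest (30.0), and without it the exposed mean over the remaining arrays, not compared within slides, was higher by 0.53.

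**Figure D5:**
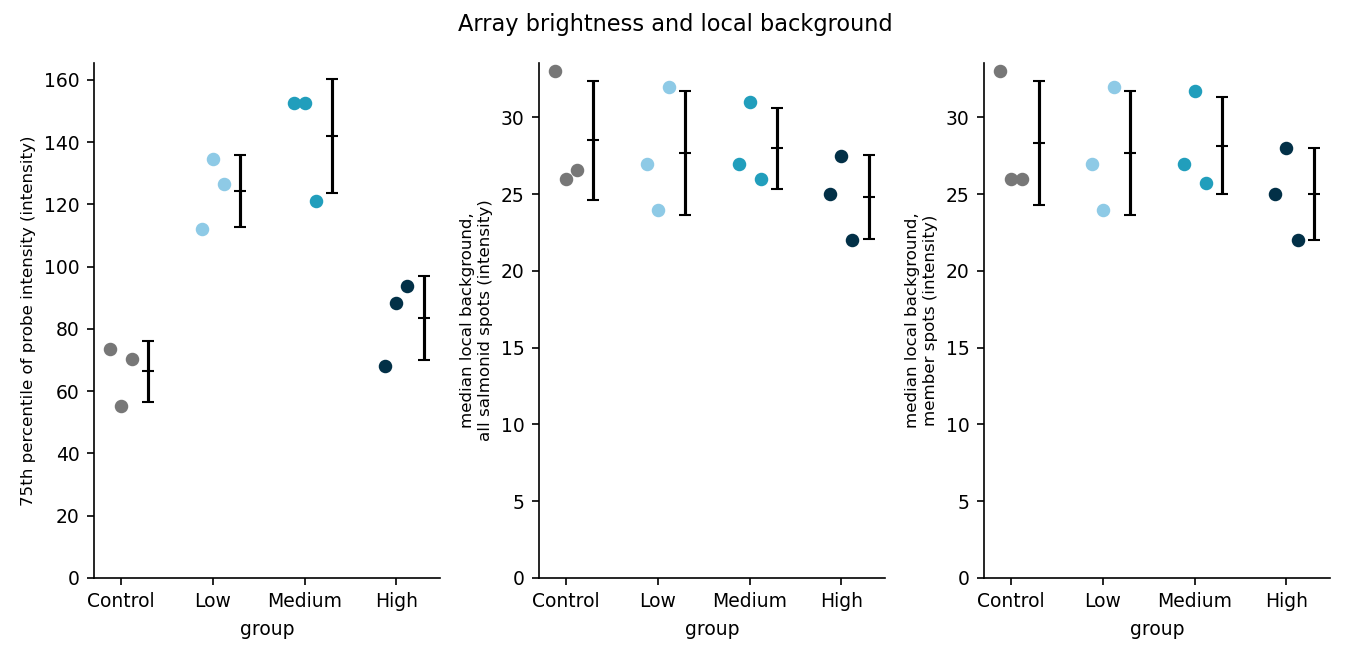
Brightness (75th percentile of probe intensity, left) and median local background around all salmonid spots (middle) and around the member spots (right), with 1 point per array and the mean ± SD of the 3 arrays of each group beside them. Brightness was 55.2 to 73.5 on the control arrays and 68.2 to 152 on the exposed arrays, whereas the background was 22.0 to 33.0 over all arrays.

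Many members lay close to the limit that chose them. On their lowest exposed array, 41 were within 0.5 (log2) of the lowest signal well above background on that array and 13 were at least 1 above it on all 9. The closest member was 0.01 above it, and 156 probes missed the rule on 1 exposed array alone, with a median signal there of -0.02 relative to the same limit. On the control side, 45 members had a signal above the limit on at least 1 control array, the highest by 0.49. The call also depends on the background at each spot. Another 291 probes missed the rule through 1 control array alone, with a median signal there of 0.66 above the limit. Of these, 177 were kept out by control replicate 3, 81 by replicate 1 and 33 by replicate 2. Without control replicate 3 the rule would have found 269 probes, and without control replicate 1, 173.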

How the data were processed

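Liver RNA of 12 samples (4 groups of 3) was hybridised in 1 colour to Agilent salmonid arrays with 62976 spots, of which 61657 held 55468 salmonid probes. The deposited files of each array hold intensities and spot flags from Agilent Feature Extraction 10.7 (background-subtracted, spatially detrended, not scaled between arrays). A table of log2 values by the authors (scaled per array and centred per probe in GeneSpring, method not stated) was used as an alternative. A probe was a member where gIsWellAboveBG was 0 on all spots of the 3 control arrays and 1 on all spots of the 9 exposed arrays. The members and gene lists were chosen with earlier results of these data known.

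The processed intensity was taken to log2 without spots flagged as outliers, averaged over repeat spots, and set relative to the 75th percentile of each array. The number of arrays limits the precision. Doses were compared with limma 3.58.1 in R 4.3.3 (Benjamini-Hochberg adjustment over 29253 probes, adjusted p below 0.05, fold change 1.5 or more), with at least 2 measured values per group, and arrays with exact permutation tests in Python 3.11.15. The script was tested on simulated data. Normexp and the alternative detection call used the median spot signal, since no mean signal was given. Names were tied to 824 probes by matching deposited values to entries of the study's gene list (relative tolerance 1e-05, at least 2 doses), which was held here in part. The authors' fold changes in it served as a key only. Named members were the 10 brightest on the scaled level, the 10 with the largest lower bound, the 5 highest and 5 lowest in high minus low U and those on a gene list. Other named members were added afterwards. Probe sequences were not used here. Alternatives changed the detection call, brightness, scaling, background correction, filter, block and arrays included.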

Additional observations from a re-analysis of the deposited data

How the results depend on the processing

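The number of members depended on single control arrays, the detection call and brightness. It was 92 by the rule, 36 with the scanner software's call of a signal significantly above local background (none of them among the 92), 36 with the exposed arrays dimmed to the control, 93 with outlier spots ignored and 132 with a call built from the median spot signal, of which 27 were among the 92. Leaving out 1 array gave 92 to 269 probes (269 without control replicate 3, 173 without control replicate 1, 139 without high U replicate 1 and 154 without high U replicate 2). The reverse count of 4 became 72 after dimming, an alternative chosen after seeing the data.

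The median difference of the members, 1.42 (log2), was 2.20 with no scaling, 2.04 with spike-in scaling, 1.51 with quantile normalization, 1.51 in the authors' value table and 0.027 with normexp, where 56 of 92 members were higher in exposed liver, and 1.35 to 1.43 without single arrays. The median of all probes tested moved by 0.83 with no scaling, 0.67 with spike-ins, 0.04 with quantile normalization and -0.07 with normexp. DPH2 turned to -0.071 and CUST_14034_PI426552878 (high minus low U) to 0.016 under normexp. The median lower bound of 1.68-fold was 2.88-fold unscaled and 2.58-fold with spike-ins, also chosen after seeing the data, and 1.57 to 1.87-fold without single arrays.

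No member was called between doses (0) under any alternative but 1, the analysis with no filter on dim probes, where CUST_45895_PI426552878 passed for high minus medium U, as did 9.6% of the 55467 probes tested. Under normexp the median member difference for high minus medium U turned from -0.10 to 0.19 and for medium minus low U from 0.13 to -0.03. A replicate block also gave 0 calls. The replicate numbers did not pair the samples (mean correlation of deviations 0.02 for the same number, range -0.41 to 0.57, against 0.31 on the same slide), and a slide block gave 0. The local background difference of -1.72 became 0.53 without control replicate 1 (range without single arrays -2.97 to 0.53), while within the 3 slides it was -3, -0.67 and -1.5. The brightness difference of 0.78 ranged from 0.65 to 0.87, and without control replicate 2 its p was 0.0727 (exact permutation test). The causes were not tested. With intensities this close to background, 3 arrays per dose set wide limits on differences between doses.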

Other observations

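The reverse pattern, well above background on all 3 control arrays and on no exposed array, held for 4 probes, and 2 of them have names. A fructose-bisphosphate aldolase c-b, a glycolytic enzyme of the kind best known from brain, measured 15.3, 15.8 and 12.2 on the control arrays and 2.83 to 11.8 on the exposed arrays. A membrane-type matrix metalloproteinase, an enzyme that cuts extracellular matrix at the cell surface, measured 15.6, 13.2 and 16.2 on the control arrays and 5.76 to 15.7 on the exposed arrays. Its unscaled intensities overlapped between the groups. These probes were chosen by the same contrast, so no test is given.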
